A study of Mus musculus with 18 samples.

Results

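The molecular chaperone and heat shock genes measured here were 46 of the 8109 genes that could be named on the array, with 56 probes among 45926 that were not controls. A probe was taken as a member where the number in its identifier, read as a mouse NCBI gene ID, belonged to a gene whose symbol starts with Hsp followed by a digit or by a, b, d, e or h, with Dnaj, with Cct or Bag followed by a digit, with Pdia or with Fkbp. This reading gave a gene name to 9807 of the 45926 probes, and it gave no member whose symbol starts with Pdia. By class the members were 30 probes for J proteins, 6 for Hsp70 proteins, 6 for Hsp90 proteins, 3 for CCT chaperonin subunits, 3 for FKBP peptidyl-prolyl isomerases, 2 for BAG cochaperones, 2 for the mitochondrial chaperonin pair Hspd1 and Hspe1, and 1 each for the small heat shock protein Hspb1, the Hsp110 protein Hspa4l, the Hspb1-binding protein gene Hspbap1 and a pseudogene, Hspe1-ps2. By the usual location of the protein, 26 probes belonged to the cytosol or nucleus, 9 to the endoplasmic reticulum, 10 to mitochondria and 10 to other or mixed places.

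The study set Cav1 knockout (KO) against wild-type (WT) mice in 3 sources of RNA, with 3 KO and 3 WT arrays each. These were a primary line of mouse embryonic fibroblasts (MEFs) taken 24 hours after plating, liver taken 24 hours after food was withdrawn, and adipose tissue taken 11 hours after food was withdrawn. Within liver and within adipose tissue both genotypes had the same time without food, and neither tissue had a fed group. The MEFs were cultured cells, for which no time without food applies. The labels give no strain, age, adipose depot or type of knockout allele, and they do not state whether each array had its own animal or culture, so the p-values below measure only the spread between these arrays.

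Chaperones bind unfolded or partly folded proteins and keep them from aggregating. Hsp70 proteins work in cycles with J proteins, which bring clients and start ATP hydrolysis, and hand some clients to Hsp90, whose cycle is set by cochaperones such as FKBP4. CCT is a ring-shaped chaperonin of the cytosol, Hspd1 and Hspe1 form the ring and the lid of the chaperonin of mitochondria, and Hspa5 is the Hsp70 of the endoplasmic reticulum. In stressed cells the transcription factor HSF1 binds heat shock elements, which are inverted repeats of the letters GAA, in front of many cytosolic chaperone genes.

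The bases before the RefSeq start (build GRCm38.p6) are shown for 4 genes whose values are central below, to show where such repeats lie. Each is 160 bases long, ends at the base before the start and is written 5′ to 3′ on the strand of the gene. Capitals mark matches on either strand to GAANNTTC or TTCNNGAA, here called a short repeat, and to a full repeat, which adds to a short one the next unit, turned the other way and again after NN, so that it always contains a short one. Hspb1 lies at chr5:135887759-135887918 (+ strand), Fkbp4 at chr6:128438657-128438816 (- strand), Dnajb6 at chr5:29735738-29735897 (+ strand) and Hspe1, whose start faces that of Hspd1, at chr1:55087988-55088147 (+ strand).
Hspb1: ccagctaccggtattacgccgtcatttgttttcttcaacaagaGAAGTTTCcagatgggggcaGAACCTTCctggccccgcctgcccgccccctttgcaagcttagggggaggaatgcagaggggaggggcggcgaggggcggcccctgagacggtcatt
Fkbp4: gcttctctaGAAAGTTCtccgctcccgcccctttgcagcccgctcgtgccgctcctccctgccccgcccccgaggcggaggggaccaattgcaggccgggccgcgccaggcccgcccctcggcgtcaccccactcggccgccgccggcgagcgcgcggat
Dnajb6: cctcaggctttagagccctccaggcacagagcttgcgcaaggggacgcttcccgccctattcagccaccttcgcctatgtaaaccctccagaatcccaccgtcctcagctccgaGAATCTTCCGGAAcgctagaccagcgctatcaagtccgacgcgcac
Hspe1: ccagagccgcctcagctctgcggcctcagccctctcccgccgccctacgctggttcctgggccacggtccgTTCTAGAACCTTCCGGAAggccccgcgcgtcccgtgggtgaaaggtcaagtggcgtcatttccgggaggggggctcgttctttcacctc

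RefSeq promoter sequences were at hand for 33 of the 46 genes, with 44 start sites. Hsp90aa1, Hsp90ab1, Hspa8, Hspa9 and Dnajc5 were among the genes without one, so they were not searched. In the 250 bases before the start, 4 of these 44 start sites, belonging to Dnajb6 (2 nearby starts), Hspd1 and Hspe1 (facing starts that share the same repeat), held a full repeat, against 153 of 32851 (0.466%) of all mouse start sites in the table. The short repeat was in 11 of the 44, belonging to 10 genes, against 12.8% of all start sites. The endoplasmic reticulum stress response element, known from genes of that response, was in 1 of the 44, that of Hspa5, against 0.113% of all. CCAAT itself was in 12 of the 44, against 33.8% of all. These matches are letters in a window and say nothing on binding.

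The arrays were Illumina bead arrays, and values below are log2 intensities after background correction and quantile normalization within a tissue. The background SD in that correction was 112 to 507 per array, against 11.7 to 23.0 by median and MAD. Differences of some dim probes were larger in size under other settings, as given below. Between 12075 and 16971 probes were detected per array (detection p under 0.05). A probe was tested in a tissue where it was detected on at least 3 of the 6 arrays, and called where its adjusted p was below 0.05 (limma with Benjamini-Hochberg adjustment over all probes tested). The Cav1 probe measured 9.29, 9.84 and 10.31 in KO MEFs, against 13.32, 13.20 and 13.25 in WT MEFs (log2 difference -3.44 ± 0.26 SE, adjusted p = 0.0160; 0.0929 with the replicate number as a block). It measured 10.18, 11.17 and 11.15 in KO adipose tissue, against 14.92, 15.32 and 15.39 in WT adipose tissue (-4.38 ± 0.31, adjusted p = 0.0155 by limma). In liver, where it was dim, it measured 6.65, 6.57 and 6.53 in KO and 6.78, 6.82 and 6.86 in WT (-0.23 ± 0.05, adjusted p = 0.0609 by limma). The liver value depended on the processing: it was -0.57 without background correction (0.0231), -1.37 with the background from median and MAD (0.0181) and -2.38 with the authors' normalized values (0.0281), and it was called in 7 of 16 alternatives. Hepatocyte markers were all detected in liver (5 of 5 genes) and adipocyte markers in adipose tissue (2 of 2), while of 4 fibroblast markers MEFs showed the 3 collagen genes and not Postn. Detection alone did not separate the tissues. Both adipocyte genes were also detected in MEFs and liver, and 1 hepatocyte gene in MEFs and 2 in adipose tissue. The adipocyte probes summed to raw signals of 56200 to 64100 in WT adipose tissue, 515 to 569 in WT liver and 602 to 880 in WT MEFs.

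Of the 56 chaperone probes, 30 were detected on all 18 arrays and 10 on none. The filter left 38 to test in MEFs, 39 in adipose tissue and 36 in liver, with 33 tested in all 3 tissues and 13 in none, and 36 of the 46 genes had a probe that was tested. Where 2 probes for 1 gene were bright their levels correlated over the 18 arrays, which does not show that they agree between genotypes. The 3 Hsp90ab1 probes correlated with r of 0.95 to 0.98, and the 2 for Hspa8, the constitutive cytosolic Hsp70, with 0.82 (Pearson, a description over 18 arrays that share tissue differences).

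Levels of the same probe differed between tissues, as seen with all 18 arrays normalized together. The tissues also differed in time without food, and no slide held arrays of more than 1 tissue. Tissue, time without food and slide therefore cannot be told apart, and no test was made. The widest span of WT means was that of Hspa5, with 8.10 ± 0.22 in adipose tissue, 10.93 ± 0.13 in MEFs and 11.37 ± 0.38 in liver (SD, n = 3 each). The ranges in MEFs and liver overlapped, and both lay above adipose tissue. Fkbp14, an isomerase of the endoplasmic reticulum that acts on collagen, was at 7.95 ± 0.05 in WT liver, 8.17 ± 0.11 in WT adipose tissue and 10.41 ± 0.22 in WT MEFs (SD, n = 3 each). The CCT subunit Cct3 was at 8.86 ± 0.11 in WT adipose tissue, 9.23 ± 0.05 in WT liver and 11.13 ± 0.05 in WT MEFs. The brighter probe for Hsp90aa1, the stress-inducible Hsp90, followed the same order, with 9.95 ± 0.28, 11.29 ± 0.10 and 12.19 ± 0.15. Dnajc22, a membrane J protein, was detected on all 6 liver arrays and on none of the 12 others. Hspbap1 was detected on all 6 MEF arrays and all 6 adipose arrays, and on none in liver.

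**Figure D1:**
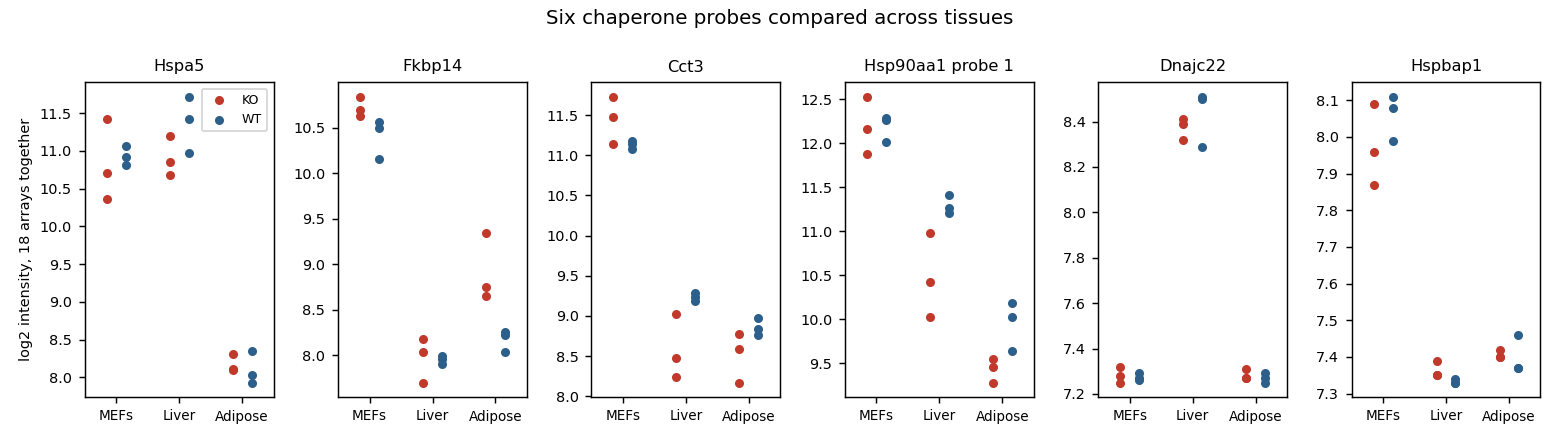
Log2 intensities of 6 chaperone probes in MEFs, liver and adipose tissue, with all 18 arrays normalized together; each point is 1 array, KO left of WT. Hspa5 was lowest in adipose tissue, Fkbp14, Cct3 and Hsp90aa1 probe 1 were highest in MEFs, and Dnajc22 stood above the undetected level in liver only among these 3 tissues.

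Liver held all the chaperone probes that passed the test between genotypes. The small heat shock protein Hspb1, the Hsp90 cochaperone Fkbp4, the mitochondrial Hsp70 Hspa9 and the J protein Dnajb6 fell in KO liver, and Dnajc5, a J protein of secretory vesicles, rose. That made 5 called of 36 tested, 1 higher and 4 lower, against 4.69% of all 12571 probes tested in liver (1.96% higher and 2.73% lower). The calls were sensitive to the arrays used: 0 to 9 members were called when 1 array was left out. None remained without WT replicate 3, and 1 (Fkbp4) remained without KO replicate 2 or without WT replicate 2. Without KO replicate 3, 2 were called: Hspa9 of the 5, and the CCT subunit Cct4, which was higher in KO. Without WT replicate 1, 3 were called, 2 of them among the 5, and without KO replicate 1, 9 were called, 4 of them among the 5. With the authors' normalized values none of these 5 probes was called. All 5 differences kept their direction in every one of these fits.

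Hspb1 keeps unfolding proteins soluble and binds actin filaments. It measured 8.17, 7.11 and 6.89 in KO liver, against 9.41, 9.84 and 9.99 in WT liver. KO replicates 2 and 3 sat lowest, and KO replicate 1 stood between them and the WT arrays, with no overlap. The log2 difference was -2.36 ± 0.36 (SE), a level 5.13-fold higher in WT (adjusted p = 0.0309, limma), and it ranged from -2.76 to -2.11 with 1 array left out, and it was called only in the fit without KO replicate 1. Fewer cells of a type that express a gene and less RNA per cell cannot be told apart in such bulk samples.

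Fkbp4, which binds Hsp90 and steroid receptors, measured 9.89, 9.68 and 9.75 in KO liver, against 10.46, 10.33 and 10.41 in WT liver. The groups lay well apart, with little spread in either. The log2 difference was -0.63 ± 0.07 (SE, adjusted p = 0.0143, limma), and the call was lost without KO replicate 3 (0.0523) and without WT replicate 3 (0.0725). Hspa9, which drives protein import into mitochondria, measured 9.95, 9.68 and 10.10 in KO liver and 10.59, 10.58 and 10.49 in WT liver. All 3 KO arrays were below all WT arrays, by a mean log2 difference of -0.64 ± 0.11 (SE, adjusted p = 0.0409, limma). Dnajb6, which holds back aggregation of polyglutamine proteins, measured 7.19, 7.13 and 7.11 in KO liver and 7.44, 7.69 and 7.57 in WT liver (-0.42 ± 0.07 SE, adjusted p = 0.0393, limma). Dnajb6 stayed called only without KO replicate 1 or WT replicate 1, and Hspa9 only without KO replicate 3, among the fits that left out 1 array. Dnajc5, known as cysteine string protein, measured 7.91, 7.98 and 8.26 in KO liver and 7.35, 7.25 and 7.48 in WT liver. Here the KO arrays were above WT without overlap (0.69 ± 0.11 SE, adjusted p = 0.0343, limma), and the call held only without KO replicate 1 among those fits.

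**Figure D2:**
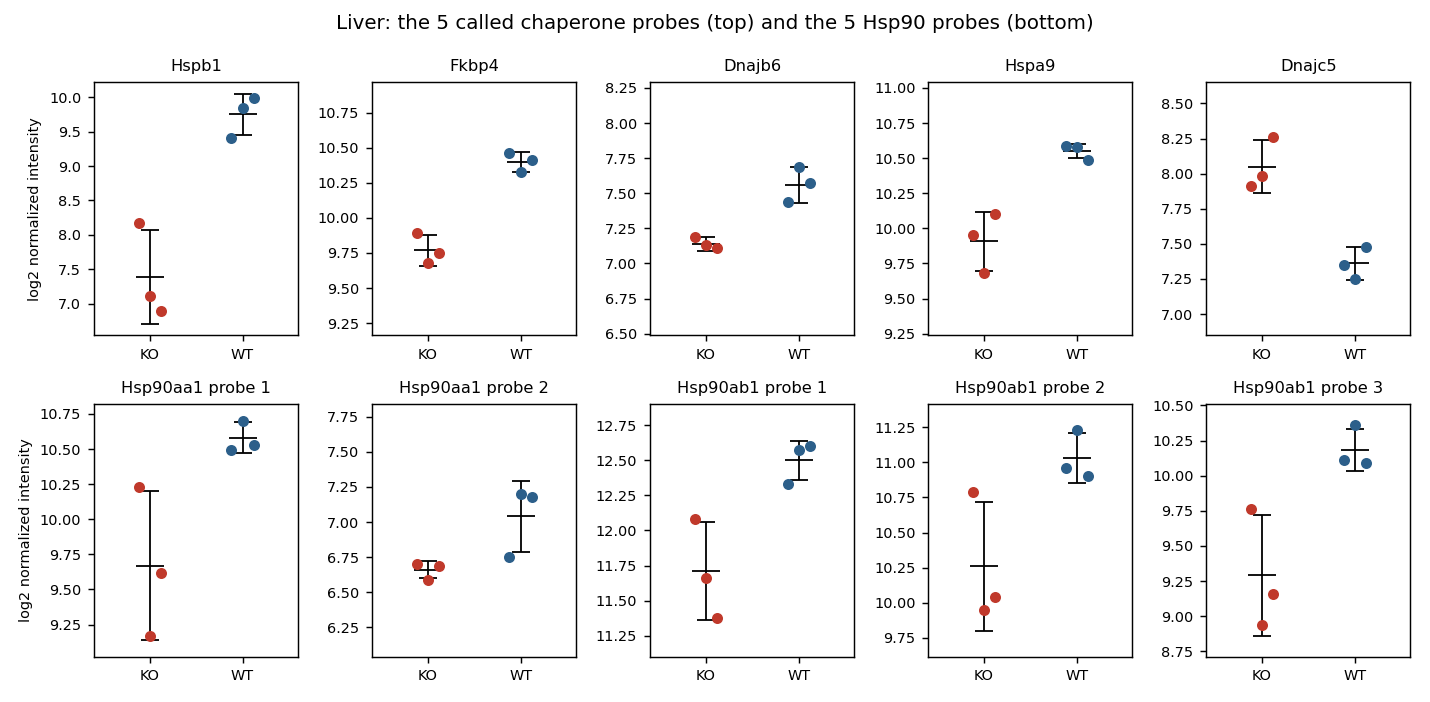
Log2 normalized intensities in liver of the 5 called chaperone probes (top) and of the 5 Hsp90 probes tested (bottom); points are arrays, KO left of WT, and bars are the mean and SD (n = 3). Hspb1, Fkbp4, Dnajb6, Hspa9 and all 5 Hsp90 probes lay lower in KO without overlap, and Dnajc5 lay higher.

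The 5 Hsp90 probes tested in liver, for 2 genes, all lay below WT without overlap of the arrays, against 14.8% of all probes. None passed the test (adjusted p from 0.0768 to 0.160, limma). Hsp90ab1, the constitutive cytosolic Hsp90, measured with its brightest probe 12.08, 11.66 and 11.38 in KO liver, against 12.33, 12.57 and 12.60 in WT liver (log2 difference -0.80 ± 0.19 SE). Its other probes differed by -0.77 ± 0.24 and -0.90 ± 0.22. Hsp90aa1 measured with its brighter probe 10.23, 9.17 and 9.62 in KO liver and 10.49, 10.70 and 10.53 in WT liver (-0.90 ± 0.26). KO replicate 1 was nearest to WT in each of the 3 Hsp90ab1 probes and in this one. Without that array, all 3 Hsp90ab1 probes and the brighter Hsp90aa1 probe were called (adjusted p from 0.0129 to 0.0198). In that fit 8.84% of all probes were called, against 4.69% in the main fit. Each of these Hsp90 probes was called in only 1 of the 6 fits without 1 array. The remaining probe, the dim Hsp90aa1 probe 2, was detected on 2 of 3 KO arrays and differed by -0.38 ± 0.13.

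Over the whole class list in liver, 27 of 36 probes were lower in KO, with a median log2 difference of -0.19, against -0.01 over all probes tested. That median was -0.31 with the authors' normalized values and -0.02 without the filter on dim probes. KO and WT arrays did not overlap for 15 members, 13 below and 2 above WT, against 27.9% of all probes (14.8% below and 13.1% above). The cytosolic and nuclear members carried most of this: 18 of 20 probes were lower, 12 lay below WT without overlap, and the median was -0.36. They included Cct3, which measured 8.13, 7.34 and 7.58 in KO liver and 8.41, 8.35 and 8.30 in WT liver (-0.67 ± 0.20, adjusted p = 0.127 by limma). In contrast, Cct4, another subunit of the same ring, measured 12.13, 12.22 and 11.41 in KO liver and 11.52, 11.41 and 11.53 in WT liver, with overlapping arrays. Bag4, a nucleotide exchange factor for Hsp70, was at 8.78, 9.17 and 9.05 in KO liver and 9.37, 9.36 and 9.31 in WT liver, below WT without overlap (-0.35 ± 0.10, adjusted p = 0.126). The 2 Hspa8 probes took opposite signs, -0.25 ± 0.13 and 0.24 ± 0.11, and both had overlapping arrays, so no direction is given for that gene. The dim Hspa4l probe measured 6.62, 6.63 and 6.65 in KO liver and 6.80, 6.78 and 6.73 in WT liver, a difference of -0.14 ± 0.04 (adjusted p = 0.100). It was called in 5 of 16 alternatives, and with the authors' normalized values, where it differed by -1.55 (adjusted p = 0.0241), it was the only member called.

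The 5 probes of the endoplasmic reticulum had a median log2 difference of -0.11 in liver and none was without overlap. Hspa5 measured 9.90, 10.47 and 10.09 in KO liver and 10.21, 11.07 and 10.72 in WT liver, a difference of -0.51 ± 0.25 (adjusted p = 0.315, limma). Of the 6 mitochondrial probes, 5 were lower (median -0.13). Hspa9 was the one that fell. Dnaja3, the J protein partner of Hspa9, went the other way, with 10.97, 11.33 and 10.94 in KO liver and 10.42, 10.37 and 10.83 in WT liver. Its arrays lay above WT without overlap (0.54 ± 0.16, adjusted p = 0.131). Hspd1 and Hspe1 differed by -0.23 ± 0.08 and -0.36 ± 0.13, with overlap (adjusted p = 0.168 and 0.190).

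**Figure D3:**
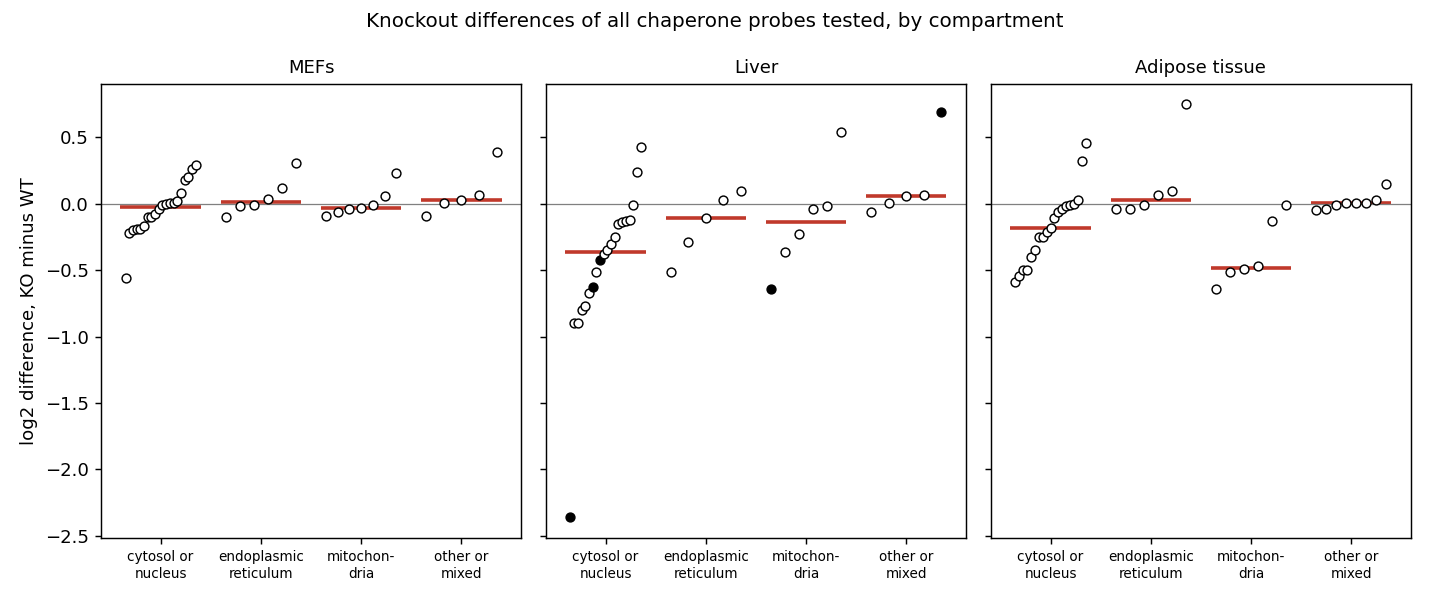
Log2 difference, KO minus WT, of every chaperone probe tested in MEFs, liver and adipose tissue, grouped by the compartment of the protein; filled points passed the test and red lines are group medians. In MEFs the medians were -0.02 for cytosol or nucleus and -0.03 for mitochondria; in liver they were -0.36 and -0.13; in adipose tissue -0.18 and -0.48.

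Partner genes outside the symbol rule were given by a list of cochaperones, folding enzymes of the endoplasmic reticulum, stress sensors and heat shock factors, of which 23 genes had a probe. In liver 3 of 23 probes tested were called, all lower, against 2.73% of all probes called lower. Arrays lay below WT without overlap for 5 of the 23 and above for 3, against 14.8% and 13.1% of all probes. St13, which couples Hsp70 to Hsp90, measured 8.18, 8.25 and 8.22 in KO liver and 8.70, 8.75 and 8.75 in WT liver (-0.52 ± 0.04 SE, adjusted p = 0.00672, limma). Chordc1, an Hsp90 cochaperone, measured 9.72, 9.36 and 9.44 in KO and 10.08, 10.09 and 10.11 in WT (-0.59 ± 0.10, adjusted p = 0.0377). Grpel2, a nucleotide exchange factor of Hspa9, measured 7.01, 6.94 and 7.12 in KO and 7.89, 7.85 and 7.62 in WT (-0.76 ± 0.09, adjusted p = 0.0167). St13 stayed called in 5 of the 6 fits without 1 array (lost without WT replicate 3, adjusted p = 0.0504), Grpel2 in 4 (lost without KO replicate 2 or WT replicate 2) and Chordc1 only without KO replicate 1. Vbp1, a prefoldin subunit, and Cdc37l1 lay above WT without overlap, by 0.53 ± 0.15 and 0.19 ± 0.05 (adjusted p = 0.108 and 0.0966), while a further Cdc37l1 probe differed by -0.10 ± 0.12 with overlap. One of the Ptges3 probes (Ptges3 is the Hsp90 cochaperone p23) lay above WT without overlap by 0.10 ± 0.04, and Pfdn4 below by -0.11 ± 0.04 (adjusted p = 0.256 and 0.237). A further Ptges3 probe differed by -0.03 ± 0.04 with overlap. The factor gene Hsf1 measured 9.22, 8.46 and 8.50 in KO liver and 8.90, 8.90 and 8.80 in WT liver, with overlap. Hsf2 lay below WT without overlap (-0.18 ± 0.05, adjusted p = 0.114). No probe of 7 for folding enzymes of the endoplasmic reticulum was without overlap.

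Blood markers moved with genotype in liver. The summed raw signal of 3 haemoglobin probes, all detected, was 4470 to 16400 in KO liver and 20600 to 34800 in WT liver, and 1 of the 3 was called, while the 5 hepatocyte markers summed to 98500 to 106000 in KO and 96600 to 118000 in WT. The part of blood content in the chaperone values was not tested. WT replicate 1 was on another slide than the other 5 liver arrays. Among those 5, Fkbp4 and Dnajb6 were still called, with Hsp90aa1 probe 2 added, and Hspb1 differed by -2.54 (adjusted p = 0.0655), Hspa9 by -0.62 (0.100) and Dnajc5 by 0.69 (0.0886). On that slide the WT arrays and the KO arrays held separate runs of positions, so position and genotype cannot be told apart.

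In MEFs no chaperone probe passed the test (0 of 38 by limma, against 0.448% of all 14047 probes), and 1 had an unadjusted p under 0.05, against 10.7% of all. The median log2 difference was -0.01, and 21 of 38 were lower in KO. Arrays did not overlap for 2 members, 1 above and 1 below WT, against 16.9% of all probes (8.54% above and 8.32% below). Fkbp4 measured 10.75, 10.98 and 10.21 in KO MEFs, against 11.13, 11.36 and 11.13 in WT MEFs (-0.56 ± 0.21 SE, adjusted p = 0.422). Fkbp14 measured 10.25, 10.31 and 10.46 in KO MEFs, against 10.13, 9.77 and 10.19 in WT MEFs (0.31 ± 0.12, adjusted p = 0.466). Hspb1 measured 10.99, 11.13 and 11.35 in KO MEFs and 10.85, 11.67 and 11.54 in WT MEFs, so that WT spanned the KO values (-0.20 ± 0.24). The Hsp90 probes had differences from -0.19 to 0.26, with 3 of 5 positive. The J proteins had a median of 0.01 over 17 probes, and the largest of them was Dnajc5 at 0.39 ± 0.18, with overlap. Among the partner genes, 0 of 22 probes were called, against 0.448% of all probes. Arrays lay below WT without overlap for 5 of the 22 and above for 0, against 8.32% and 8.54% of all probes. Of these, 1 probe each for Cdc37l1, Ppid and Ptges3 differed by -0.14 ± 0.05, -0.19 ± 0.06 and -0.19 ± 0.06. St13 (-0.29 ± 0.08, adjusted p = 0.283) and Txndc12, a thioredoxin-like protein of the endoplasmic reticulum (-0.32 ± 0.09, adjusted p = 0.300), were the other 2. A further Cdc37l1 probe and a further Ptges3 probe differed by 0.19 ± 0.13 and -0.04 ± 0.05, with overlap. The 3 detected collagen markers and Postn summed to 5790 to 8050 in KO MEFs and 9090 to 11600 in WT MEFs. Of these 4 markers 1 was called, against 0.448% of all probes, and their part was not tested. In MEFs the WT arrays filled one run of slide positions and the KO arrays the next, so position and genotype cannot be told apart.

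In adipose tissue KO replicate 5 correlated over all probes about as closely with the KO arrays (mean r = 0.9741) as with the WT arrays (0.9745). No chaperone probe was called, with or without it (0 of 39 by limma, against 0.407% of all 15965 probes). Unadjusted p was under 0.05 for 8, against 13.2% of all. KO and WT arrays did not overlap for 10 members, 6 below and 4 above WT, against 19.6% of all probes. Over all 39 members tested the median log2 difference was -0.04, against 0.00 over all probes. Of these members 27 were lower in KO, against 52.1% of all probes. The mitochondrial members lay lowest: all 6 probes tested were lower in KO, with a median of -0.48. The median was -0.18 for cytosol or nucleus, 0.03 for endoplasmic reticulum and 0.01 for other or mixed places. Hspe1, the lid of the chaperonin, measured 10.31, 10.30 and 10.33 in KO adipose tissue, against 11.03, 11.08 and 10.76 in WT adipose tissue (-0.64 ± 0.09 SE, adjusted p = 0.0759). The KO arrays lay within 0.03 log2 units of each other, and the difference was called without WT replicate 4 (adjusted p = 0.0241). Hspd1, the ring, measured 12.42, 12.79 and 12.98 in KO and 13.37, 13.20 and 13.15 in WT, also without overlap (-0.51 ± 0.16, adjusted p = 0.276). Hspa9 measured 10.89, 11.32 and 11.94 in KO and 12.01, 11.80 and 11.80 in WT, where KO replicate 5 overlapped WT (-0.49 ± 0.27). Dnaja3 differed by -0.47 ± 0.29, again with overlap.

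**Figure D4:**
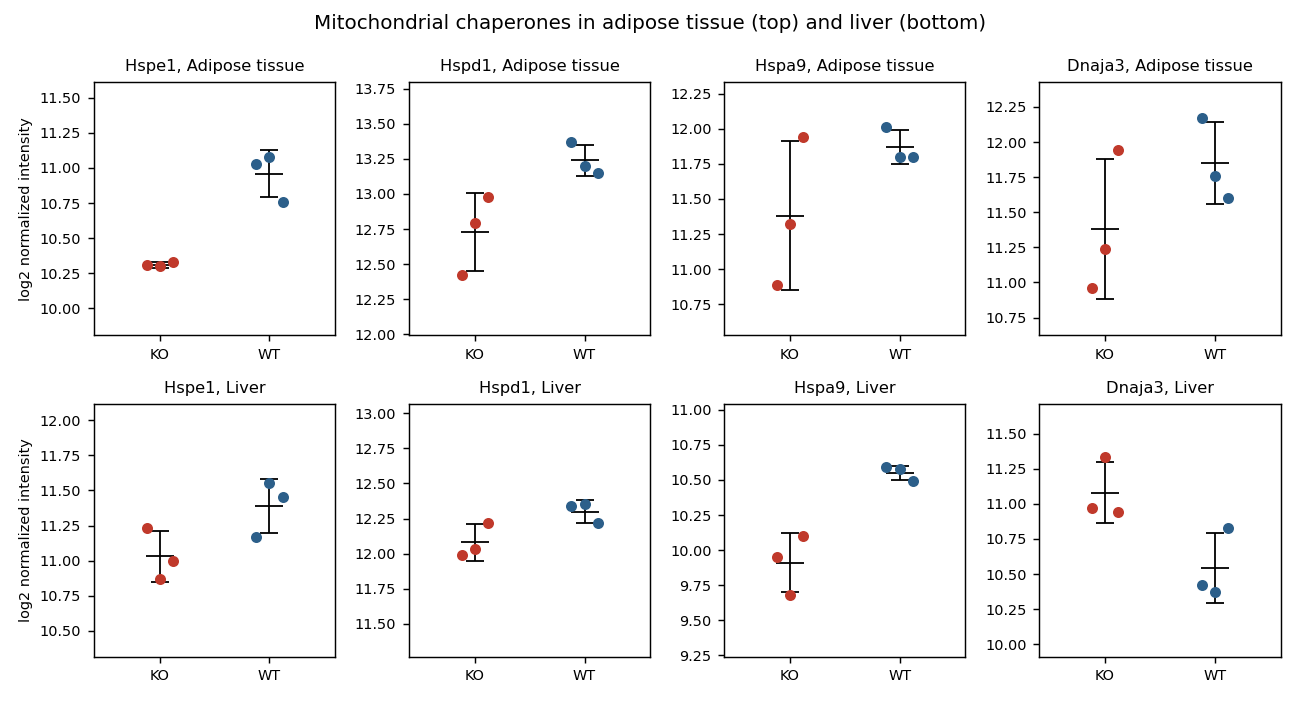
Log2 normalized intensities of 4 mitochondrial chaperone probes in adipose tissue (top) and liver (bottom); points are arrays, KO left of WT, bars are the mean and SD (n = 3). In adipose tissue Hspe1 and Hspd1 lay lower in KO without overlap; in liver Hspa9 fell and Dnaja3 lay higher without overlap.

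Of the cytosolic members in adipose tissue, 15 of 19 were lower in KO (median -0.18). Fkbp4 measured 10.64, 10.85 and 11.03 in KO and 11.72, 11.24 and 11.33 in WT (-0.59 ± 0.16, adjusted p = 0.239). The brighter Hsp90aa1 probe measured 10.23, 10.06 and 10.32 in KO and 10.92, 10.41 and 10.78 in WT (-0.50 ± 0.15, adjusted p = 0.272), while the 3 Hsp90ab1 probes had overlapping arrays, with differences from -0.54 to -0.25. Bag6, which handles tail-anchored membrane proteins, differed by -0.21 ± 0.08, below WT without overlap. As in liver, the 2 Hspa8 probes took opposite signs: -0.18 ± 0.12 with overlap, and 0.46 ± 0.13 without overlap (adjusted p = 0.239).

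In the endoplasmic reticulum the pattern was mixed. Fkbp14 measured 10.12, 9.51 and 9.42 in KO adipose tissue, against 8.80, 8.98 and 9.02 in WT adipose tissue. All KO arrays were above all WT arrays, by 0.75 ± 0.20 (adjusted p = 0.232, limma). Hspa5 was at 9.07, 8.87 and 8.85 in KO and 8.79, 9.11 and 8.69 in WT, with overlap. Dim probes of 2 J proteins of the endoplasmic reticulum had no overlap either, Dnajc25 above WT by 0.10 ± 0.04 and Dnajb9 below by -0.04 ± 0.03. These sizes depended on the processing: over the alternatives Dnajc25 ran from 0.06 to 0.51 and Dnajb9 from -0.71 to -0.03. Outside the endoplasmic reticulum, a dim probe of Dnajc16 lay above WT without overlap by 0.15 ± 0.04 (0.12 to 0.42 over the alternatives). A further Dnajc16 probe differed by 0.03 ± 0.03 with overlap. Of the partner genes, 0 of 21 probes were called, against 0.407% of all probes. Arrays lay above WT without overlap for 2 of the 21 and below for 1, against 8.79% and 10.8% of all probes. Sel1l, of the degradation machinery of the endoplasmic reticulum, measured 11.38, 11.30 and 10.98 in KO and 10.50, 10.48 and 10.84 in WT (0.61 ± 0.15, adjusted p = 0.201), and Txndc5, a disulfide isomerase, differed by 0.59 ± 0.23, also above WT without overlap. Pfdn2, a prefoldin subunit, lay below (-0.42 ± 0.13, adjusted p = 0.271). Collagen-type fibroblast markers summed to 6810 to 32300 in KO adipose tissue and 4540 to 13500 in WT, and macrophage markers to 4490 to 14500 in KO and 2480 to 9080 in WT, with adipocyte markers at 58400 to 62600 in KO and 56200 to 64100 in WT. The part of these cell types in the values of Fkbp14 and the other members was not tested.

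Fkbp4 was the member, of 33 tested in all 3 tissues, whose KO arrays lay below WT without overlap in every tissue. Its log2 difference was -0.56 ± 0.21 in MEFs and -0.59 ± 0.16 in adipose tissue, neither called, and -0.63 ± 0.07 in liver, which was called (SE). The background was 0.665% of the 9770 probes tested in all 3 tissues for that pattern below WT. No member lay above WT without overlap in all 3 tissues. Fkbp4 and Fkbp14 lie on chromosome 6, which also carries Cav1. They are the only members on that chromosome. Fkbp14 differed by 0.31 ± 0.12 in MEFs, 0.75 ± 0.20 in adipose tissue and 0.03 ± 0.11 in liver, and it was called in none. Any part of the shared chromosome in these values was not tested.

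**Figure D5:**
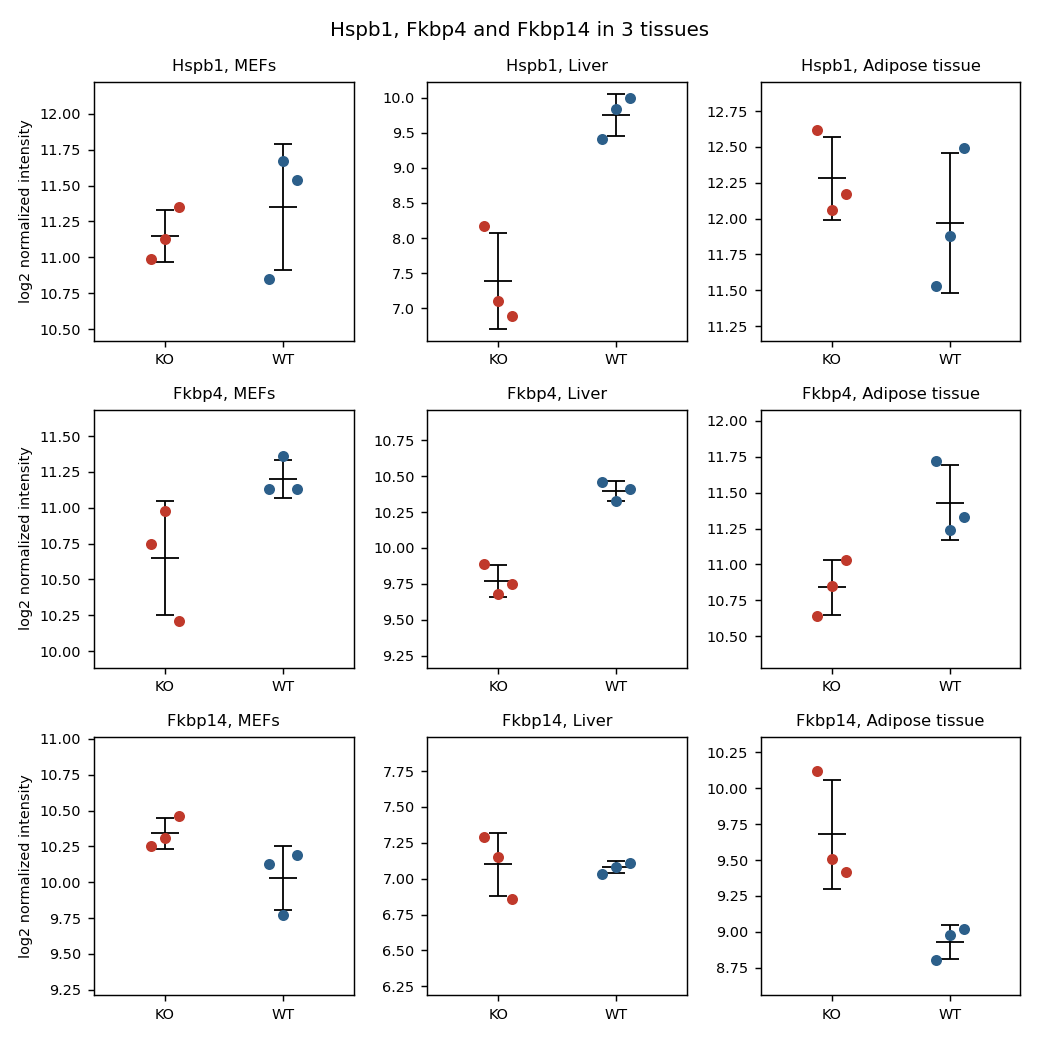
Log2 normalized intensities of Hspb1, Fkbp4 and Fkbp14 by tissue; points are arrays, KO left of WT, bars are the mean and SD (n = 3). Hspb1 lay apart between genotypes in liver, Fkbp4 lay lower in KO in all 3 tissues, and Fkbp14 lay higher in KO in MEFs and adipose tissue.

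Whether a knockout difference differed between tissues was tested on all 18 arrays normalized together. Tissue, time without food and slide changed together in these contrasts, so they cannot be told apart. Hspb1 was called in 2 of the 3 contrasts. Its knockout difference in liver (-2.28 in this joint fit) was lower than in MEFs (-0.20) by -2.08 ± 0.47 (SE, adjusted p = 0.0282, limma), 1 of 34 members called, against 3.73% of all probes. Its knockout difference in adipose tissue (0.32) was above that in liver by 2.60 ± 0.47 (adjusted p = 0.00612), 1 of 33 members called, against 4.73% of all probes. The contrast with MEFs lost its call in 6 of 12 fits without 1 array (liver KO replicates 2 and 3, liver WT replicates 2 and 3, MEF KO replicate 2 and MEF WT replicate 1, adjusted p from 0.0566 to 0.0701), and that of adipose tissue with liver kept it in all 12. Between adipose tissue and MEFs 0 of 36 members were called, against 2.98% of all probes, with Hspe1 nearest to the threshold (-0.67 ± 0.17, adjusted p = 0.0539). The Hsp90 probes differed between liver and MEFs by -1.09 to -0.47, with adjusted p from 0.131 to 0.277. For Fkbp4 the 3 contrasts were 0.03 ± 0.25, -0.01 ± 0.25 and -0.04 ± 0.25.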

How the data were processed

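RNA of 18 samples was hybridised to Illumina mouse bead arrays. Deposited per array were intensities per probe, exported without normalization, and a detection p-value, both from BeadStudio 1.5.1.3 per the file headers. The authors also deposited normalized intensities. Per the submitters' processing notes, lumi, affy, limma and RMA were among the tools, with no role given. Intensities were corrected and quantile normalized within each tissue (neqc of limma 3.58.1 in R 4.3.3, negative controls inferred from detection p-values, offset 16), giving log2 values. Probes detected (p under 0.05) on 3 of 6 arrays were fitted by genotype with lmFit and eBayes, adjusted over all probes by Benjamini-Hochberg. Tissue contrasts used all 18 arrays. The self-test on simulated data recovered the directions set. Control probes (66) were left out. Precision is limited by 3 arrays a group.

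Gene IDs and promoters came from RefSeq, build GRCm38.p6. Of numbers of 10000 or more in probe names, 81.1% matched a gene ID, against 40.9% to 45.9% of the same numbers shifted by a few units, so some gene names given here may be wrong. Named members were those called, the 6 with the largest difference each way per tissue without overlap, and the brightest of each class. Hspa5, Cct3, Dnajc22, Hspbap1 and other members were added after their values were seen. Members, classes and partner list were chosen with earlier results of these data known. Deviations of same-numbered KO and WT arrays correlated at 0.101, 0.227 and 0.239 in MEFs, and at 0.227, 0.234 and -0.103 in liver. Between differently numbered arrays the values ran from -0.255 to 0.127 in MEFs and from -0.296 to 0.161 in liver. Same-numbered arrays were therefore not the closest throughout in either tissue. Alternatives are listed in the closing section.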

Additional observations from a re-analysis of the deposited data

Results flagged for a closer look

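The knockout difference of Hspb1 differed between tissues by a test of the difference itself. Tissue, time without food and slide cannot be told apart in that test. It was -2.08 on the log2 scale for liver against MEFs, where the arrays of KO and WT liver did not overlap and those of MEFs did. It was 2.60 for adipose tissue against liver, where the adipose arrays overlapped. No test for a single far sample was made, since each group held 3 arrays.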

How the results depend on the processing

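In MEFs no member was called in any of 15 alternatives. In liver 5 members were called, with 4.69% of all probes. Without background correction 8 were called (all 5 among them; 6.67% of all probes), with the background from median and MAD 3 (2 of the 5 and Hspa4l; 4.55%), with median centring 10 (all 5; 12.1%), with the authors' normalized values 1 (Hspa4l, none of the 5; 2.96%), without the filter on dim probes 1 (Fkbp4; 0.777%) and with trended robust variance 8 (all 5; 6.44%). With the replicate number as a block 2 of the 5 were called (2.06%), and with slide as a block or within the slide that held both genotypes 3 (2 of the 5; 2.32% and 2.38%). With 1 array left out the count ranged from 0 to 9 (0.483% to 8.84%). It was 5 under the 2 remaining settings. Median centring moved the liver median of all probes to -0.13 and that of the members to -0.27. The member median was -0.31 with the authors' values and -0.02 without the filter in liver, and -0.18 with the authors' values in adipose tissue. The 5 called differences kept their sign in all 17 liver alternatives. Fkbp4 was called in 13 of them, Dnajb6 in 9, Dnajc5 in 8, Hspb1 in 7 and Hspa9 in 6. In adipose tissue 1 member, Hspe1, was called with median centring, 0 with slide section as a block, and 0 to 1 with 1 array left out. Members with a different knockout effect, liver against MEFs, numbered 0 without the filter, 3 with trended robust variance and 0 to 3 with 1 array left out. Adipose tissue against MEFs gave 0 to 2, with 2 without adipose KO replicate 5 or adipose WT replicate 4 and 1 without MEF WT replicate 2. Adipose tissue against liver gave 2 without the filter, 2 with trended robust variance and 1 to 3 with 1 array left out, 3 without adipose KO replicate 5 and 2 without adipose WT replicate 2 or liver KO replicate 3. The Cav1 call was lost without KO replicate 2, WT replicate 2 or WT replicate 3 in MEFs (adjusted p from 0.0771 to 0.0946), and without KO replicate 3 or WT replicate 1, 2 or 4 in adipose tissue (0.0607 to 0.0863), and there also with slide section as a block (0.0626). The replicate block changed no member call in MEFs (0 called); in liver the samples share only a number. In adipose tissue no replicate block was fitted, because KO and WT share only replicate number 2. Sizes of differences changed too: over the liver alternatives Grpel2 ran from -1.43 to -0.71 and Dnajb6 from -0.78 to -0.37. The cause of these changes was not tested.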
